A study of Arabidopsis thaliana with 3 samples.

Results

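Genes of sugar, starch and amino acid metabolism were followed in *Arabidopsis thaliana* seedlings that carry a mutation in *DSS1(I)* and were exposed to hydrogen peroxide. The genes were taken from the deposited table of genes that the authors called in *dss1(I)* against WT. A gene was included when its description held a word such as sucrose, trehalose, invertase, glutamine or aminotransferase, or when it was named *ASN1*. Genes with an entry in the transcription factor family column were left out, and so were descriptions with the words chloroplast, mitochondri, transporter or receptor. This gave 16 of the 2762 genes in the table. The words alone matched 26 genes. Of the 10 others, 4 were left out for the family column only, 3 for the words only and 3 for both. The family column also holds names of protein domains and is filled for 1005 genes (36.4%), so that enzymes with a named domain, such as nitrate reductase *NIA1*, were left out with the transcription factors.

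WT plants were Columbia-0, and *dss1(I)* is a homozygous CRISPR/Cas9 line with a large indel in *DSS1(I)* (del25), which its genotype label calls a knockdown. DSS1 is a small acidic protein of the proteasome lid that also takes part in DNA repair. Both genotypes grew on MS agar with 1% sucrose, and at an age of 14 days the seedlings were moved to 10 mM H2O2 for 3 days. Whole-seedling mRNA, combined per genotype over 3 independent experiments, was sequenced as 1 library per genotype, and neither untreated seedlings nor the *dss1(V)* library were analysed here.

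With 1 library per genotype, no difference given here has a replicate check. Counts are reads per gene, and FPKM is the number of fragments per kilobase of gene, scaled to a fixed number of library reads, by which levels can be compared between genes. The log2 ratio was taken from the authors' scaled counts (counts brought to a common library size) with a pseudocount of 1. The interval after a ratio is an exact 95% interval of the ratio without pseudocount, for counting error only, and it compares 2 libraries, not 2 genotypes. Where reads are given as a pair of numbers, WT comes first. The libraries held 11033843 (*dss1(I)*) and 9394592 (WT) reads on genes. The table holds called genes only. A change of about 2-fold or more is therefore a property of how the genes were chosen, and what is described is their direction, level and order. Scaling by the median ratio of the called genes in place of library size would raise each log2 ratio by 1.02. The direction of 32 of 32 members and listed genes in the table stayed the same, but those lower by about 2-fold, such as *GLN1-3* and *C/VIF1*, then lay near 0.

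The mutated gene *ATDSS1(I)* (AT1G64750) had 807 reads in WT and 233 in *dss1(I)*, 4.03-fold lower in *dss1(I)* (counting interval from 3.48-fold to 4.68-fold). Its paralog *DSS1(V)* (AT5G45010), which the labels do not name as mutated in this line, was lower to a like degree, with 73 reads in WT and 21 in *dss1(I)*, 4.04-fold (2.46-fold to 6.92-fold). The part of reads shared between the paralogs was not tested. Of 10 leaf and photosynthesis markers, 0 are in the table of called genes. Of 11 root markers, 1 is, the endodermis regulator *SCR*, with 95 reads in WT and 260 in *dss1(I)*. Of all nuclear protein-coding genes, 9.77% are in the table, so that marker counts of 0 and 1 are near that share. The levels of the other markers were not analysed here, so that the tissue make-up of the seedlings was not tested. In whole seedlings, fewer cells of a type and less RNA per cell cannot be told apart.

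Sucrose made in leaves is carried to other organs by sucrose transporters and split there by invertases and sucrose synthases. Trehalose 6-phosphate, made from UDP-glucose and glucose 6-phosphate, reports the sucrose level of the cell and restrains the SnRK1 kinase, which is active when sugar is scarce. Nitrogen enters amino acids when glutamine synthetase adds ammonium to glutamate. Asparagine synthetase then moves the amide group of glutamine to aspartate, giving asparagine, a nitrogen-rich compound for transport and storage.

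The members cover only a part of what their label names. By step, 5 belong to trehalose phosphate metabolism, 5 to asparagine, glutamine and glutamate, 5 to sucrose and invertase, and 1 is an aminotransferase. No gene of starch, hexokinase, nitrate or nitrite reduction, proline dehydrogenase or tryptophan synthase is among the 16. Only 10 of the 16 are enzymes or enzyme-like proteins. The others include *SUC5* and *SUC7*, annotated as sucrose carriers, and the invertase inhibitors *C/VIF1* and *C/VIF2*. The rest are the related inhibitor gene AT5G20740 and *GDU4*, a membrane protein of amino acid export.

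In *dss1(I)*, *ASN1* and the trehalose phosphate synthase genes *TPS9*, *TPS10* and *TPS11* were higher than in WT, whereas the 3 cytosolic glutamine synthetase genes and the 2 trehalose phosphate phosphatase genes among the members were lower. The promoters of the first set and of the 2 abundant glutamine synthetase genes are shown. The genes are grouped here by direction, so that a like direction within a set follows from the grouping. Each line gives the 250 bases before the gene start in TAIR10.1 (RefSeq), 5′ to 3′ on the strand of the gene. Capitals mark the searched motifs, which were the G-box CACGTG (bound by bZIP and bHLH factors), ACTCAT (known from the proline dehydrogenase promoter) and TATCCA (known from sugar-regulated rice amylase promoters), each searched on both strands.
ASN1 (chr3:17441432-17441681, minus strand): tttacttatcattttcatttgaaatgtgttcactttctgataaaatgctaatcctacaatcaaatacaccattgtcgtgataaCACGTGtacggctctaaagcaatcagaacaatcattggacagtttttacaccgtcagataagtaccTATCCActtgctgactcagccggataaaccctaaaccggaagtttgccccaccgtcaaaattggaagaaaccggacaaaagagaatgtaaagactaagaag
TPS11 (chr2:8108648-8108897, plus strand): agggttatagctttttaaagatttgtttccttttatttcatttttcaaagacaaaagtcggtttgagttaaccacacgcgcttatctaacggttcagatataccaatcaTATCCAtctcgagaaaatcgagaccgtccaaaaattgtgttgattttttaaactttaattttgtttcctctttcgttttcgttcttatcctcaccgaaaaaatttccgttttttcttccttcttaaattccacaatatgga
TPS9 (chr1:8431929-8432178, plus strand): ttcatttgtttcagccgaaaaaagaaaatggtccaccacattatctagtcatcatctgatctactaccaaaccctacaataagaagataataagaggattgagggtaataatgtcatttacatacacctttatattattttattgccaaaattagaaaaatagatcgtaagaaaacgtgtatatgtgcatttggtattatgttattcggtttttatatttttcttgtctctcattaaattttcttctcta
TPS10 (chr1:22181741-22181990, minus strand): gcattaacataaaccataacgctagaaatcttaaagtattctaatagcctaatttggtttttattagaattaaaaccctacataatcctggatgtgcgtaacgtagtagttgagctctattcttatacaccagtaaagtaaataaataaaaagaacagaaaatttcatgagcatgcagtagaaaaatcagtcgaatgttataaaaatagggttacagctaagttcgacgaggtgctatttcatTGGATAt
GLN1-1 (chr5:14935886-14936135, minus strand): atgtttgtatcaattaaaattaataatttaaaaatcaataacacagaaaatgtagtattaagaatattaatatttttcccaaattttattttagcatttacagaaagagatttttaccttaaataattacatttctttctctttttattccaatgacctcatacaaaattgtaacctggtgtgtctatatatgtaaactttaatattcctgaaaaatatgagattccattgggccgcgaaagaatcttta
GLN1-3 (chr3:6096951-6097200, plus strand): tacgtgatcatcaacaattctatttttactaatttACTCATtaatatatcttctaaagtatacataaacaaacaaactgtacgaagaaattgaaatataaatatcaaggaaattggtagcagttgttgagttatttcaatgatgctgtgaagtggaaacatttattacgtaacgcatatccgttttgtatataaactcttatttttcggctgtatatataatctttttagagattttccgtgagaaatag

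*ASN1* held CACGTG 167 and TATCCA 101 bases before its start. *TPS11* held TATCCA 141 bases before its start, and *TPS10* held it on the other strand, as TGGATA, 7 bases before. *TPS9* and *GLN1-1* held none of the 3 motifs, and *GLN1-3* held ACTCAT 215 bases before its start. Over all 16 members, CACGTG was found in 3 (*ASN1*, *SUC5* and *TPPE*), TATCCA in 5 (*ASN1*, *TPS10*, *TPS11*, *TPPE* and *C/VIF1*) and ACTCAT in 2 (*TPPF* and *GLN1-3*), and no matches overlapped. Of all 27443 promoters of this length, 6.49% held CACGTG, 13.6% TATCCA and 12.3% ACTCAT. Of the 2680 promoters of genes in the table, 8.25%, 14.9% and 12.0% held them. The *ASN1* window also holds part of AT3G47341, a gene annotated on the other strand. These matches describe letters, and binding was not measured.

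All 16 genes reached 10 scaled counts in 1 library or both. Of them, 6 were at least 2-fold higher in *dss1(I)* and 10 at least 2-fold lower. Among the 2620 genes of the table with such a count, 48.1% were at least 2-fold higher and 51.0% at least 2-fold lower. At least 4-fold higher were 2 members, *SUC5* and *ASN1*, beside 6.30% of the 2620 genes, and 0 members were at least 4-fold lower, beside 12.3%. *SUC5* had 1 read in WT, and with a pseudocount of 5 its log2 ratio was 1.70, below 4-fold. The median log2 ratio was -1.08 over the 16 members and -1.02 over the table. The shares in both directions and the median were thus near those of the table, and say nothing particular about the members as a set.

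**Figure D1:**
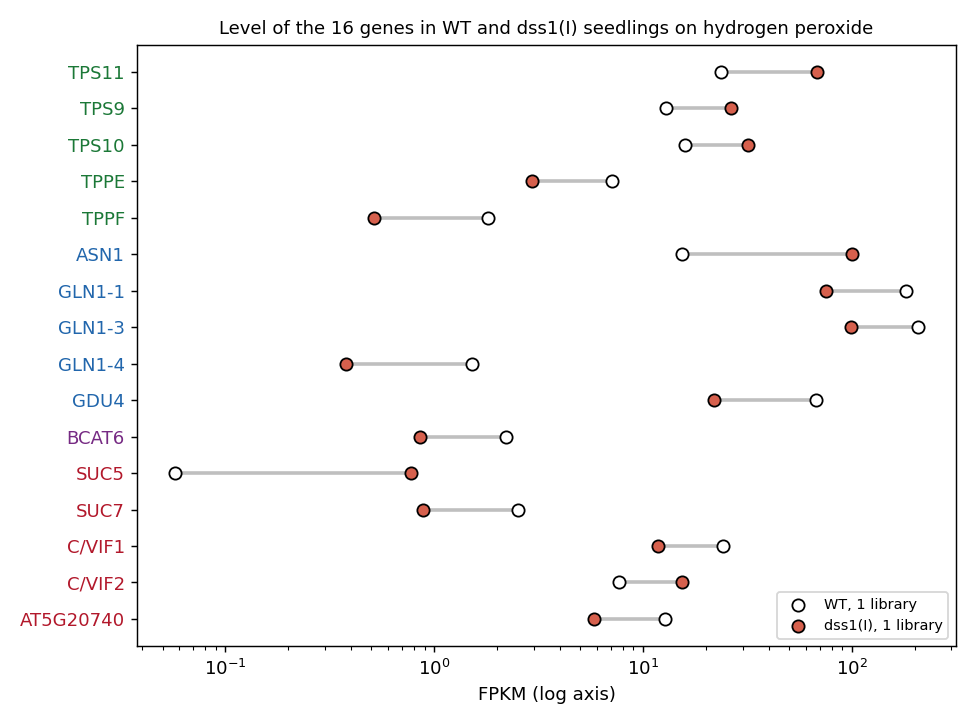
FPKM (log axis) of the 16 genes in the WT library (open circles) and the *dss1(I)* library (red circles), 1 library each, with gene names coloured by group (green trehalose, blue asparagine, glutamine and glutamate, purple aminotransferase, red sucrose and invertase). *ASN1* moved from 15.4 to 100.1 FPKM, while *GLN1-3* moved from 208 to 98.9.

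*ASN1* (AT3G47340, chromosome 3, 17437840 to 17441431, minus strand), which encodes a glutamine-dependent asparagine synthetase that is switched on in the dark and repressed by sugar, had 397 reads in WT and 3032 in *dss1(I)*. Its log2 ratio was 2.71 (2.56 to 2.87), or 6.57-fold higher (5.91 to 7.31). In FPKM it went from 15.4, rank 7 of the 16 in WT, to 100.1, rank 1 in *dss1(I)*. Among the 411 genes of the table that were higher in *dss1(I)* and had a like length (2096 to 3305 bases), 11 had a larger log2 ratio than *ASN1*. Annotation on the other strand (AT3G47341) overlaps 0.401% of its exon bases.

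The 3 called genes of cytosolic glutamine synthetase, which makes the glutamine that ASN1 uses, were all lower. *GLN1-3* (AT3G17820, chromosome 3, 6097201 to 6099595, plus strand) had 3038 reads in WT and 1695 in *dss1(I)*, a log2 ratio of -1.06 (-1.15 to -0.97). *GLN1-1* (AT5G37600, chromosome 5, 14933286 to 14935885, minus strand) had 2699 and 1318 reads, a log2 ratio of -1.25 (-1.35 to -1.16). Both are abundant, at 208 and 180.9 FPKM in WT the first and second of the 16. Among the 321 lower genes of like length (1407 to 2095 bases), 294 had a log2 ratio further below 0 than *GLN1-3*, and 222 than *GLN1-1*. *GLN1-4* (AT5G16570, chromosome 5, 5421589 to 5424749, minus strand) had only 24 and 7 reads, and its log2 ratio of -1.84 had a wide interval (-3.45 to -0.74). Because *GLN1-4* was so low, at 1.52 FPKM in WT and 0.377 in *dss1(I)*, the sum of the 3 rested on the other two.

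Summed over these 3 called genes, the level was 174 FPKM in *dss1(I)* and 391 in WT, which is 2.24-fold lower in *dss1(I)*. Set against this sum, the FPKM of *ASN1* was 0.0394 of it in WT and 0.574 of it in *dss1(I)*. In WT the transcripts of these 3 genes exceeded *ASN1* 25.4-fold, and in *dss1(I)* 1.74-fold. *ASN1* has 2746 bases, and 76.4% of the other called genes of like length were higher, as given further on. The 3 glutamine synthetase genes have 1554 to 1685 bases, where 38.2% were higher. Their opposite directions are thus the more common ones at these lengths, and the part of length was not tested. Glutamine synthetase genes outside the table were not analysed here, so that the sum is not the level of the whole family. These are transcript levels, and neither amino acids nor enzyme activities were measured.

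*GDU4* (AT2G24762, chromosome 2, 10559173 to 10560239, plus strand) is an intronless gene of the GLUTAMINE DUMPER family, membrane proteins whose overproduction makes plants export amino acids. It had 673 reads in WT and 257 in *dss1(I)*, a log2 ratio of -1.60 (-1.82 to -1.40). Its FPKM was 21.8 in *dss1(I)* and 67.1 in WT. Among the 444 genes of like length (983 to 1404 bases) that were lower, 196 had a log2 ratio further below 0 than *GDU4*. *BCAT6* (AT1G50110, chromosome 1, 18557984 to 18560391, minus strand), an aminotransferase of the branched-chain amino acids valine, leucine and isoleucine, had 31 and 14 reads. The low counts left its log2 ratio of -1.30 with an interval from -2.39 to -0.41.

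Among the 5 called trehalose phosphate genes, the 3 synthase-like genes were higher and the 2 phosphatase genes lower in *dss1(I)*. The synthase-like genes *TPS9*, *TPS10* and *TPS11* encode class II proteins, which join a synthase-like to a phosphatase-like domain and are thought to regulate rather than to catalyse. *TPS11* (AT2G18700, chromosome 2, 8108898 to 8112010, plus strand) had 655 reads in WT and 2201 in *dss1(I)*, a log2 ratio of 1.53 (1.40 to 1.66). *TPS9* (AT1G23870, chromosome 1, 8432179 to 8435656, plus strand) had 359 and 865 reads, a log2 ratio of 1.05 (0.87 to 1.23). *TPS10* (AT1G60140, chromosome 1, 22176934 to 22181740, minus strand) had 650 and 1537 reads, a log2 ratio of 1.02 (0.89 to 1.16). The interval of *TPS11* lay above those of the other two, which overlapped each other.

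The products of the phosphatase genes turn trehalose 6-phosphate into trehalose. *TPPE* (AT2G22190, chromosome 2, 9433616 to 9436658, minus strand) had 112 reads in WT and 54 in *dss1(I)*, a log2 ratio of -1.25 (-1.77 to -0.79). *TPPF* (AT4G12430, chromosome 4, 7365257 to 7368730, minus strand) had 30 and 10 reads. Summed FPKM of the 3 synthase genes was 126 in *dss1(I)* and 52.4 in WT, a ratio of 2.41. For the 2 phosphatase genes it was 3.44 in *dss1(I)* and 8.95 in WT, so that the synthase-like genes were the more abundant of these 5 in both libraries. The synthase genes are also the longer ones, at 2945 to 4361 bases against 1670 and 1766 for the phosphatase genes, and the direction of the called genes moved with length, as given further on.

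**Figure D2:**
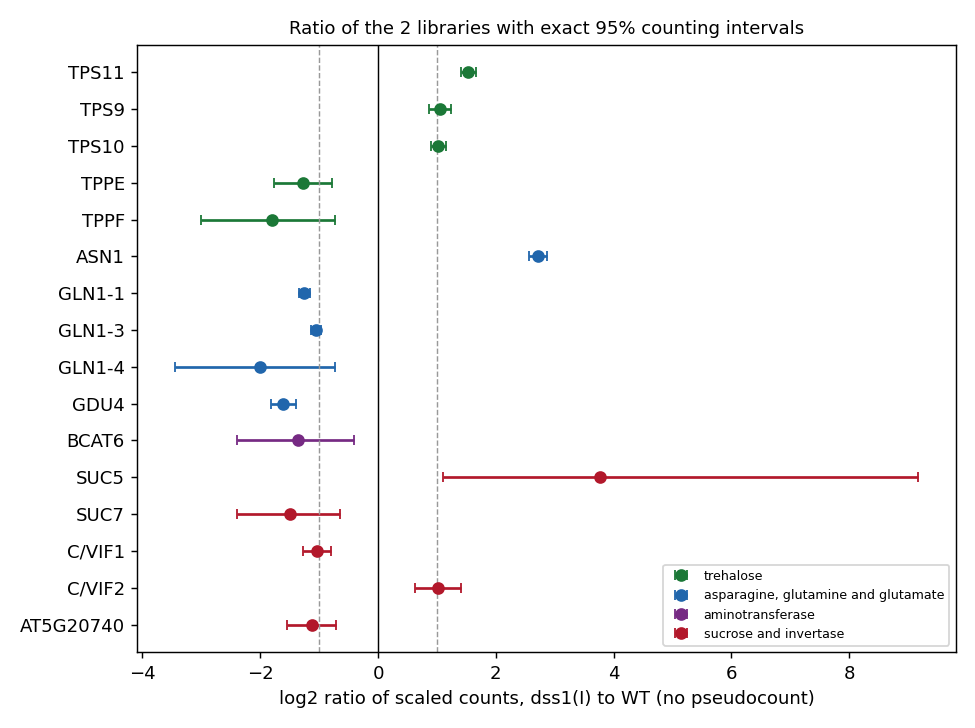
Log2 ratio of scaled counts without pseudocount, *dss1(I)* to WT, for each of the 16 genes, with bars for the exact 95% counting interval and dashed lines at a 2-fold difference. The bar of *SUC5*, with 1 read in WT, reaches 9.17, whereas that of *ASN1* runs from 2.56 to 2.87, and no bar crosses 0.

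By annotation, the sucrose and invertase genes are carriers and inhibitors, with no invertase among them. *C/VIF1* and *C/VIF2* encode proteins that bind and inhibit cell wall or vacuolar invertase. *C/VIF1* (AT1G47960, chromosome 1, 17681157 to 17683719, minus strand) had 411 reads in WT and 234 in *dss1(I)*, a log2 ratio of -1.03 (-1.27 to -0.80). *C/VIF2* (AT5G64620, chromosome 5, 25831635 to 25832731, plus strand) had 79 and 186 reads, a log2 ratio of 1.01 (0.63 to 1.42). The order of these inhibitor genes was reversed between the libraries. In WT the FPKM of *C/VIF1* was 24.2 and that of *C/VIF2* 7.67, a ratio of 3.16, and in *dss1(I)* they were 11.7 and 15.4, a ratio of 0.764. Their sum was 27.1 FPKM in *dss1(I)* and 31.9 in WT. The *C/VIF1* count, and with it the reversed order, is uncertain, because the pseudogene AT1G47950 on the same strand overlaps 44.1% of its exon bases. Of the 50-base stretches of the longest *C/VIF1* transcript, 50.6% also occur in the transcript of that pseudogene.

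AT5G20740 (chromosome 5, 7025565 to 7026753, minus strand), annotated as an invertase or pectin methylesterase inhibitor, had 142 reads in WT and 76 in *dss1(I)*, a log2 ratio of -1.11 (-1.54 to -0.71). *SUC5* and *SUC7* are annotated as sucrose transport proteins, and both were low in these seedlings. Whether *SUC7* makes a working carrier was not tested. *SUC5* (AT1G71890, chromosome 1, 27058381 to 27060786, plus strand) had 1 read in WT and 16 in *dss1(I)*, a ratio of 13.7 with a counting interval from 2.14 to 577. *SUC7* (AT1G66570, chromosome 1, 24835244 to 24837441, minus strand) had 41 and 17 reads, a log2 ratio of -1.43 (-2.40 to -0.64). Of the 50-base stretches of *SUC7*, 6.86% also occur in another gene, AT2G14670, so that its reads could be split. Of the other members apart from *C/VIF1*, 14 in all, none shared such a stretch with another gene.

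Together the 16 genes held 11519 reads in *dss1(I)*, 0.104% of the library (0.103% to 0.106%), and 9342 reads in WT, 0.0994% (0.0974% to 0.101%). *ASN1* supplied 26.3% of the members' reads in *dss1(I)* and 4.25% in WT. Without *ASN1* the share was lower in *dss1(I)* than in WT, at 0.0769% and 0.0952%. Within the total, reads of glutamine synthetase and *GDU4* were fewer in *dss1(I)*, and reads of *ASN1* and the *TPS* genes more numerous.

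Direction in this table moved with gene length. The 16 genes were therefore set beside the other called genes of like length, in 5 bins that split the table about evenly. The shortest bin, from 66 to 981 bases, held 0 members. Of the other genes with 983 to 1404 bases, 13.6% were higher in *dss1(I)*, and so was 1 of the 3 members, *C/VIF2*. From 1407 to 2095 bases, 38.2% of the others were higher, beside 1 of 9 members, *SUC5*. From 2096 to 3305 bases, 76.4% of the others were higher, beside all 3 members, *ASN1*, *TPS9* and *TPS11*. Above that, from 3317 to 16614 bases, 98.4% of the others were higher, and *TPS10* was the only member.

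The 6 higher members had a median length of 2845.5 bases and the 10 lower members one of 1629, and over the whole table these medians were 2913 and 1184. When the bins were weighted by the number of members in each, 44.5% of the other genes were higher, beside 37.5% of the members. Within their bins, *C/VIF2* and *SUC5* went against the majority. A larger log2 ratio than that of *C/VIF2* was found in 68 of the 70 higher genes of its bin, and 8 of 194 exceeded *SUC5*, whose ratio rests on 1 read in WT. The *TPS10* ratio was exceeded by 500 of the 540 higher genes of its bin, and that of *TPS9* by 350 of 411, whereas 113 of 411 exceeded *TPS11*. The part of gene length in the direction of single members was not tested.

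**Figure D3:**
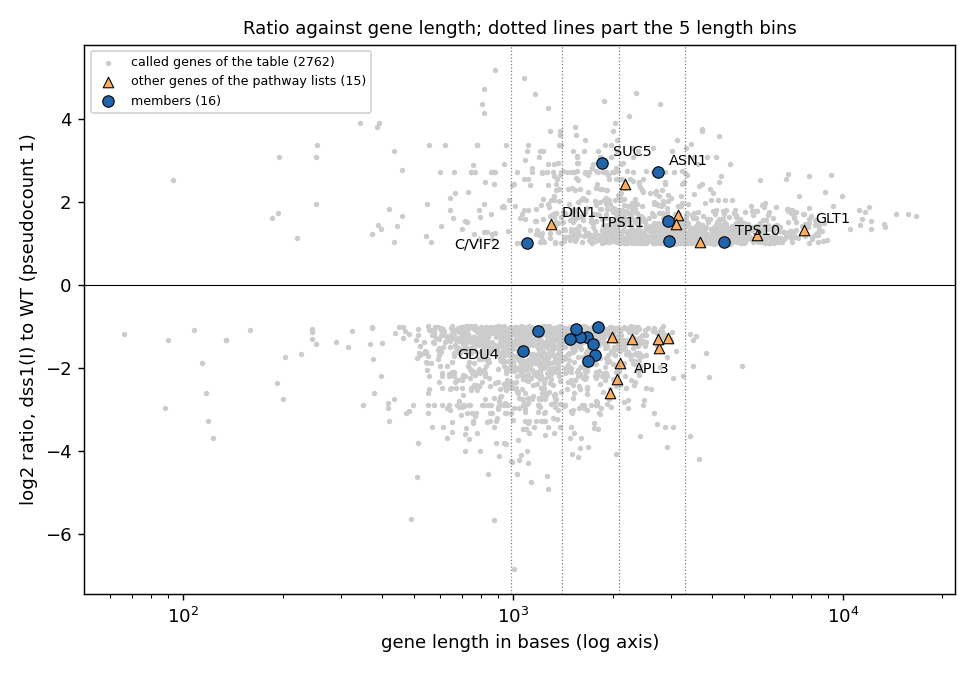
Log2 ratio of *dss1(I)* to WT (pseudocount 1) against gene length in bases (log axis) for all 2762 called genes (grey), the 16 members (blue circles) and 15 other genes of the pathway lists (orange triangles), with dotted lines at the limits of the 5 length bins. Most long genes lie above 0 and most short genes below, and *ASN1* lies above most genes of its length.

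Lists of pathway genes by locus give the surroundings of the members, including genes that the family column or the word chloroplast left out. As a background for each list, 2680 of 27443 nuclear protein-coding genes (9.77%) are in the table, which is split nearly evenly between higher and lower genes, as given above. In nitrogen assimilation, 7 of 18 loci are in the table, 4 of them higher and 3 lower in *dss1(I)*, a split near that of the table. The 3 lower ones are the glutamine synthetase genes described above. Higher were *ASN1*, the nitrate reductase gene *NIA1*, and the glutamate synthase genes *GLT1* and *GLU1*, whose products turn glutamine and 2-oxoglutarate into glutamate. *NIA1* (AT1G77760) had 741 reads in WT and 2773 in *dss1(I)*, a log2 ratio of 1.69 (1.57 to 1.81). *GLU1* (AT5G04140), the ferredoxin-dependent form of leaves, had 4731 and 12558 reads, a log2 ratio of 1.19 (1.14 to 1.24). *GLT1* (AT5G53460), the NADH-dependent form, had 1738 and 5016 reads, a log2 ratio of 1.31 (1.23 to 1.39). The other 11 loci of this list are not in the table. *GLU1* and *GLT1*, with 5495 and 7625 bases, fall in the bin in which 98.4% of the others were higher.

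Of 9 genes of a sugar starvation list, 6 are in the table and all 6 were higher, the median of their log2 ratios being 1.46, where 48.1% of the table was at least 2-fold higher. They are *ASN1*, *TPS9*, *TPS10* and *TPS11*, and the dark-inducible genes *DIN1* and *DIN10*. *DIN10* (AT5G20250), of the raffinose synthase family, had 6805 reads in WT and 21836 in *dss1(I)*, 2.76-fold higher in *dss1(I)* (2.69 to 2.84). At 232 FPKM in WT and 634 in *dss1(I)* it was more abundant than any of the 16 members. *DIN1* (AT4G35770, named *STR15* in the table), a senescence-associated gene, had 978 and 3112 reads, a log2 ratio of 1.45 (1.35 to 1.56). With 1297 bases *DIN1* is a short gene, in the bin where 13.6% of the others were higher. *ASN1*, *TPS9*, *TPS11* and *DIN10* fall in the bin where 76.4% of the others were higher, and *TPS10* in that with 98.4%. The list shares 4 genes with the members, so it is no separate evidence for their direction, and 3 of its loci are not in the table. It was also chosen with earlier results of these data known, so that its shared direction is a description only.

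Of 15 loci of starch synthesis, 3 are in the table, or 20% beside 9.77% of all genes, and these 3 were lower in *dss1(I)*. *APL3* (AT4G39210), a large subunit of ADP-glucose pyrophosphorylase, which makes the glucose donor for starch, had 3230 reads in WT and 1025 in *dss1(I)*, a log2 ratio of -1.87 (-1.98 to -1.77). Its relative *APL4* (AT2G21590) had 437 and 177 reads, a log2 ratio of -1.52 (-1.78 to -1.27). *GBSS1* (AT1G32900), the granule-bound synthase that makes amylose, had 3601 and 1679 reads, a log2 ratio of -1.32 (-1.40 to -1.23). These 3 genes have 2103 to 2765 bases, a bin in which 76.4% of the others were higher.

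In starch breakdown, 2 of 21 loci (9.52%) are in the table, both lower. *SEX4* (AT3G52180, named *DSP4* in the table), a phosphatase that removes phosphate from starch, had 1837 reads in WT and 888 in *dss1(I)*, a log2 ratio of -1.27 (-1.38 to -1.15). *ISA3* (AT4G09020), a debranching enzyme, had 1565 and 733 reads, a log2 ratio of -1.31 (-1.44 to -1.18). By length, *SEX4* falls in the bin where 38.2% of the others were higher, and *ISA3* in that with 76.4%. Most starch loci of both lists, 12 of synthesis and 19 of breakdown, are not in the table, and starch itself was not measured. Another gene annotated on the opposite strand overlaps 10.0% of the exon bases of *APL4*.

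**Figure D4:**
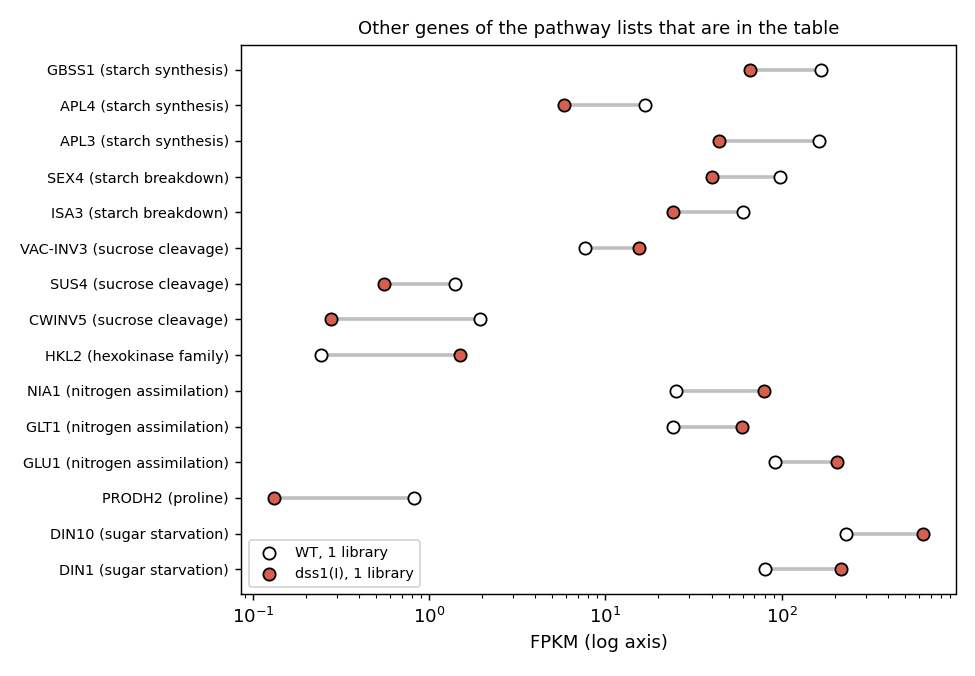
FPKM (log axis) in WT (open circles) and *dss1(I)* (red circles), 1 library each, for the 15 genes of the pathway lists that are in the table and are not among the 16 members. The 5 starch genes lie lower in *dss1(I)*, and *NIA1*, *GLT1*, *GLU1*, *DIN1* and *DIN10* lie higher.

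In sucrose cleavage, 3 of 16 loci are in the table. The vacuolar invertase-like gene *VAC-INV3* (AT1G62660, named *BFRUCT3* in the table) had 266 reads in WT and 628 in *dss1(I)*, a log2 ratio of 1.02 (0.81 to 1.23). The sucrose synthase gene *SUS4* (AT3G43190) had 39 and 18 reads, a log2 ratio of -1.28 (-2.23 to -0.49). The cell wall invertase-like gene *CWINV5* (AT3G13784) had 36 and 6 reads, a log2 ratio of -2.60 (-4.34 to -1.54), and a gene on the other strand overlaps 14.5% of its exon bases. By length, *VAC-INV3* falls in the bin where 98.4% of the others were higher, *SUS4* in that with 76.4% and *CWINV5* in that with 38.2%. Of 8 trehalose phosphate synthase loci (*TPS1* and the class II genes *TPS5* to *TPS11*), the 3 described above are in the table.

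Of 6 hexokinase loci, 1 is in the table, the hexokinase-like *HKL2* (AT3G20040, named *ATHXK4* there), with 5 reads in WT and 36 in *dss1(I)*, a log2 ratio of 2.43 (1.28 to 4.34). Of 6 proline loci, 1 is in the table, *PRODH2* (AT5G38710, named *POX2* there), a proline dehydrogenase of proline breakdown, with 16 and 3 reads. Its log2 ratio was -2.27 (-5.05 to -0.83). Sucrose synthesis (4 loci), tryptophan synthesis (7), glutamate decarboxylase (5) and the SnRK1 catalytic subunits (2) have 0 loci in the table. A locus outside the table was not called by the authors, and its level was not analysed here.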

How the data were processed

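Seedling RNA of WT and *dss1(I)*, sequenced as 1 library each, was compared. The third library, of *dss1(V)*, was left out. The authors cleaned reads with fastp, mapped them to TAIR10 with HISAT2 and counted them with featureCounts. The deposited raw counts are whole reads per gene. The scaled counts, a signal the authors made in edgeR, are counts brought to a common library size. The authors derived the deposited FPKM values from counts, gene lengths and library totals, and these totals were recovered here from count, FPKM and length. Gene length equals the union of annotated exons for 16 of 16 members. The deposited log2 fold changes, p-values and adjusted p-values are the authors' own comparison and were not used. The table holds called genes only. In all, 0 per-sample columns were left unused.

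Log2 ratios used scaled counts with a pseudocount of 1, and genes were counted at 2-fold if they reached 10 scaled counts in 1 library or both. No test was run, because 1 library per genotype gives no replicate error. Intervals are exact 95% Clopper-Pearson intervals of the 2 counts. The reads carry no molecular identifiers and are not independent molecules, so that only counting error is covered. Members, pathway lists and markers were chosen with earlier results of these data known. Every member could be named with its counts. Ratios with intervals were given for members that reached 10 scaled counts in both libraries or 500 in 1, for loci of the pathway lists, and for *SUC5*, named beyond this rule for its single WT read. Called genes were split into 5 bins of gene length. Of 2762 identifiers, 2744 matched RefSeq TAIR10.1, all with the same start, end and strand. Promoters are the 250 bases before the gene start, and shared sequence was counted in stretches of 50 bases. Alternatives were other pseudocounts, filters, scalings, thresholds, bins and member rules. Scripts were tested on simulated data. Computation used Python 3.11.15 with scipy 1.17.1, numpy 2.4.6 and pandas 2.3.3, and plotting used matplotlib 3.10.9.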

Additional observations from a re-analysis of the deposited data

How the results depend on the processing

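No paired analysis was possible because there is 1 library of each genotype. Of the 16 members, 6 were at least 2-fold higher and 10 at least 2-fold lower in *dss1(I)*. At a 4-fold threshold these counts were 2 and 0, and the 2 include *SUC5*, whose log2 ratio fell to 1.70 with a pseudocount of 5. With at least 50 scaled counts, 11 members remained, of which 6 were lower. Under scaling to the table's median ratio, 0 members were at least 2-fold lower, because the table holds called genes only and this scaling raises every log2 ratio by 1.02, and no member changed direction. It also moved the share of higher genes among others of the members' lengths from 44.5% to 47.2%. Alternatives chosen after seeing the data changed the members. With enzymes only, 6 of 10 were lower. With neither the family column nor the left-out words used, 11 of 26 were higher. The members' share of reads, 0.104% in *dss1(I)* and 0.0994% in WT, was 0.0769% and 0.0671% without the most abundant member (*ASN1* in *dss1(I)*, *GLN1-3* in WT), and 1.0997% and 0.931% of the reads of the table alone. For 32 single genes under 3 settings (pseudocount 5, pseudocount 0.1 and scaling by library total), 96 of 96 log2 ratios stayed within the counting interval. Scaling by library total shifted the ratios by only -0.014, so that agreement under it was nearly fixed in advance. The median-ratio scaling, with its shift of 1.02, was not among these settings. Depth limits *SUC5*, *GLN1-4*, *TPPF*, *BCAT6* and *SUC7*, each with fewer than 50 scaled counts in both libraries.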

Other observations

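Among the genes that matched the words but were left out, 3 lie in none of the pathway lists, and they were named after their values were seen. *PYD4* (AT3G08860), an aminotransferase with a mitochondrial description, had 1793 reads in WT and 593 in *dss1(I)*, a log2 ratio of -1.81 (counting interval from -1.95 to -1.68). It has 2401 bases, and among the 125 lower genes of its length bin 25 had a log2 ratio further below 0. *ACS12* (AT5G51690), described as a probable aminotransferase, had 62 and 149 reads, 2.07-fold higher in *dss1(I)* (1.53 to 2.83). *ATMURE* (AT1G63680) matched only through the word glutamate in the name of a peptidoglycan precursor, and had 268 and 680 reads, a log2 ratio of 1.12 (0.92 to 1.34).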
